A study of Mus musculus with 4 samples.

Results

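Amino acid transporters carry amino acids across the plasma membrane, and 10 of them were followed here at D10 and E4, as the labels name the times, in the inner cell mass (ICM) and the trophectoderm (TE) of mouse embryos. The members were taken by gene symbol from a count table of 21470 genes: Slc3a2, Slc7a5, Slc7a11, Slc7a1, Slc7a2, Slc6a14, Slc1a5, Slc1a4, Slc38a1 and Slc38a2. All 10 were in the table, and 6 of them (Slc3a2, Slc7a1, Slc6a14, Slc1a5, Slc38a1 and Slc38a2) were among the 6943 genes with enough counts to be tested. Slc1a4, Slc7a5, Slc7a2 and Slc7a11 had too few counts and are given by their counts.

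The embryos were wild type, from B6D2F1 males mated with ICR females, and a laser was used to separate the embryonic side (ICM) from the extra-embryonic side (TE). The 4 groups were D10 ICM, E4 ICM, D10 TE and E4 TE, with 5 barcoded libraries in each, read from the 3′ ends of polyadenylated transcripts. The 5 E4 replicates came from litters B, C, M, N and O, of which B and C still had a zona pellucida, the coat around the embryo. The 5 D10 replicates came from litters E, F, G, Q and S, all without a zona, and the ICM and TE of a replicate number shared a litter within a time. The sources conflict on the times: the barcode list has D10 as day 6 and E4 as before, the title sets after diapause against before, and the protocol text calls all of the embryos diapause embryos. The number of embryos in a library is not stated, and p-values therefore measure the spread between these libraries.

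Diapause is a pause of the blastocyst before implantation, in which growth and protein synthesis are low and from which the embryo can resume. Amino acids from the uterine fluid enter the blastocyst through carriers of several families, and in mouse the trophectoderm's uptake of leucine and arginine is linked to the mTORC1 kinase and to trophoblast outgrowth. Slc3a2 (CD98) is a heavy chain without transport activity of its own that brings light chains such as Slc7a5, Slc7a8 and Slc7a11 to the cell surface. Slc7a1, Slc7a2 and Slc7a3 carry arginine and lysine, and Slc6a14 takes up neutral and cationic amino acids with sodium and chloride. Slc1a4 and Slc1a5 exchange small neutral amino acids such as serine and alanine, and Slc38a1 and Slc38a2 take up glutamine and alanine with sodium. Several of these genes are known targets of ATF4, the transcription factor that responds to amino acid shortage.

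The RefSeq promoter table gave 7 start regions for 6 members (Slc1a4, Slc38a2, Slc3a2, Slc6a14, Slc7a11 and Slc7a1, the last with 2 start sites), and Slc1a5, Slc38a1, Slc7a2 and Slc7a5 were not matched. The 4 regions shown are those that held a match to a motif searched. The regions of Slc3a2 and Slc6a14 and the second start site of Slc7a1 held none and are not printed. Each run is 300 bases of the GRCm38.p6 assembly from RefSeq, 250 bases before the start site to 50 after it, written 5′ to 3′ on the gene's strand. All 4 genes lie on the minus strand, Slc1a4 at chr11:20332664-20332963, Slc7a11 at chr3:50443564-50443863, Slc7a1 at chr5:148399855-148400154 and Slc38a2 at chr15:96699679-96699978. Capitals mark the ATF4 composite site TGATGNAAN in the first 2 and the NRF2 element TGACNNNGC in the other 2, searched on both strands.
Slc1a4: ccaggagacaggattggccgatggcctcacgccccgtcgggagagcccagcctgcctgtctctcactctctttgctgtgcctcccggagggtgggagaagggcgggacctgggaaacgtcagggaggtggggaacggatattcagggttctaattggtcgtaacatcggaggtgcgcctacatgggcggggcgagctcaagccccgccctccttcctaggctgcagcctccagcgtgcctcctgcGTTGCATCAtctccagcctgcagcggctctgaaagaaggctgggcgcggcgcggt
Slc7a11: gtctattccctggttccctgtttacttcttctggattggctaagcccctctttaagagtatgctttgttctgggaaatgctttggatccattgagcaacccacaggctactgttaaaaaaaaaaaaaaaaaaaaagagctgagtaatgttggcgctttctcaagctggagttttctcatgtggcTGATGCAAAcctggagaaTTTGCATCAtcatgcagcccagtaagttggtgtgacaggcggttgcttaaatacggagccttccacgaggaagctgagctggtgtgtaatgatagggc
Slc7a1: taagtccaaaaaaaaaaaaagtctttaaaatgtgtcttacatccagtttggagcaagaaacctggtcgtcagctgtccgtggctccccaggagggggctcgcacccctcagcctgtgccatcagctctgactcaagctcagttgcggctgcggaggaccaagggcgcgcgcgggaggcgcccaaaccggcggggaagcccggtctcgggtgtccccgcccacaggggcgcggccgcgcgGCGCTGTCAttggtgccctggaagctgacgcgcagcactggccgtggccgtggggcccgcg
Slc38a2: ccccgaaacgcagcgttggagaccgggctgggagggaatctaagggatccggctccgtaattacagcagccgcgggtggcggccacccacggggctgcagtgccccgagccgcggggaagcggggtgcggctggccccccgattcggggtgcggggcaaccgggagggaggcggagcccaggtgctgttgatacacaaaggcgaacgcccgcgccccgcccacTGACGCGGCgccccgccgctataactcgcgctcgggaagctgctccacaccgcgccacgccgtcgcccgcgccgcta
The ATF4 composite site was in 2 of the 7 member windows and in 3.95% of 32851 mouse promoter windows of the same length. Slc7a11 held it in 2 places, as 0.07% of all windows did. The NRF2 element was in 2 of the 7 member windows and in 12.4% of all windows. The E-box CACGTG was in 0 of the 7 and in 7.15% of all windows. The ATF4 site of Slc1a4 matched on the minus strand at bases 246 to 254 of its window, and those of Slc7a11 at bases 185 to 193 and 203 to 211. A match describes letters in the window and no more.

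The libraries held 144276 to 1010354 counts. Levels are given as CPM, that is counts scaled by library size and TMM factors, and 3 counts, the limit that a count of 0 allows, stood for 2.99 to 20.7 CPM. The tissue labels matched the trophectoderm markers: the summed level of 12 trophectoderm markers was 3806 to 6266 CPM in D10 ICM and 2630 to 3984 CPM in E4 ICM, against 8984 to 11590 CPM in D10 TE and 8767 to 11930 CPM in E4 TE. All 12 were counted in the ICM groups too. The 12 epiblast markers summed to 1357 to 2188 CPM in D10 ICM and 2616 to 3984 CPM in E4 ICM, against 552 to 1056 CPM in D10 TE and 973 to 3586 CPM in E4 TE, so the E4 tissues overlapped. Most of the E4 TE sum was Dppa5a, at 2175 ± 889.9 CPM (SD, n = 5). The 12 primitive endoderm markers summed to 8343 to 10980 CPM in D10 ICM and 2032 to 4876 CPM in E4 ICM, against 2598 to 3850 CPM in D10 TE and 1161 to 1579 CPM in E4 TE. At 0 were Fgf4, Pou5f1, Sox2, Tdgf1 and Sox7 in D10 TE and Esrrb, Fgf4, Pou5f1, Cubn and Sox7 in E4 TE, but Pou5f1 had only 1 count in D10 ICM and 8 in E4 ICM, so its 0 in TE does not separate the tissues at this depth. In such dissected tissue, fewer cells of a type and less RNA per cell cannot be told apart. Uterine epithelium markers (7 of 8 in the table) summed to 417 to 554 CPM in D10 TE against 118 to 217 CPM in E4 TE. Most of this was Wfdc2, at 428 ± 64.8 CPM in D10 TE and 151 ± 35.4 CPM in E4 TE (SD, n = 5 each). In summed counts of D10 TE against E4 TE, Muc1 had 51 against 2, Sprr2f 11 against 0, Pax8 6 against 0 and Foxa2 4 against 1. Pgr went the other way, with 0 against 5, and Ltf was at 0 in both. In ICM the uterine sum was 204 to 339 CPM at D10 against 57.3 to 209 CPM at E4, so a higher D10 sum was not particular to TE. Foxa2 had 134 against 21 counts in ICM.

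The counts of members that passed the test are set here beside the share of all 6943 tested genes that passed. At D10 relative to E4, Slc3a2 and Slc38a1 rose in the ICM (2 of 6 tested members, 13.7% of all genes higher) and Slc1a5 and Slc3a2 rose in the TE (2 of 6, 11.9% of all genes higher). By edgeR, 0 of the 6 fell in either tissue, where 9.97% of all genes in the ICM and 9.89% in the TE did. At an unadjusted p under 0.05, 0 of the 6 were lower. With no filter on low counts, 2 of the 10 fell in TE (763 of 20558 genes lower). These were Slc1a4 and Slc7a5 (adjusted p = 0.0135 and 0.00647), and neither passed without E4 litter M (0.257 and 0.514). Without the zona litters, 1 of 7 tested members fell in TE (547 of 7623 genes lower). At D10, Slc7a1, Slc38a1 and Slc38a2 were higher and Slc1a5 and Slc3a2 lower in ICM than in TE (3 and 2 of 6, against 12.9% and 12.6% of all genes). At E4, Slc1a5 and Slc7a1 were higher and Slc6a14 lower in ICM than in TE (2 and 1 of 6, against 15.8% and 15.4%). The D10 minus E4 change was greater in ICM than in TE for Slc38a1 and smaller for Slc1a5 (1 of 6 each, against 3.15% and 1.83% of all genes). The median log2 fold change of the 6 was 0.52 and -0.19 for the times in ICM and TE, and 0.28 and 0.34 for the tissues at D10 and E4, beside 0.00, 0.02, 0.01 and 0.03 over all tested genes. Comparisons that have a group in common share its libraries.

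**Figure D1:**
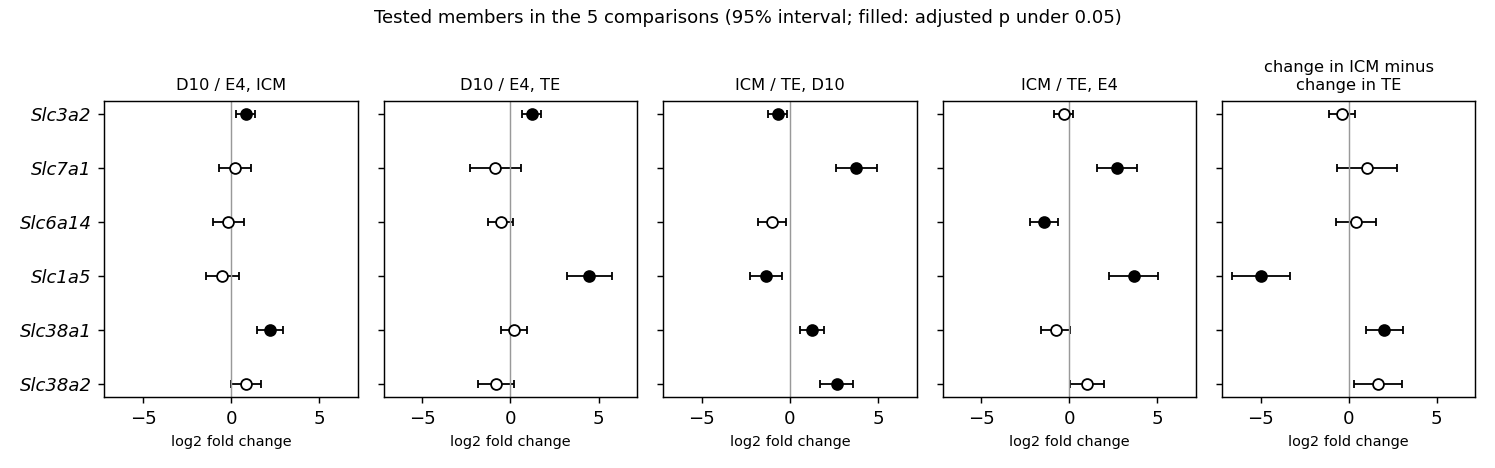
Log2 fold change of the 6 tested members in each of the 5 comparisons, from the edgeR quasi-likelihood fit of all 4 groups, with 95% intervals over 5 libraries a group. Filled points passed at an adjusted p of 0.05. Slc1a5 lies at 4.48 in the TE over time and at -4.98 in the difference of the changes, and Slc7a1 lies to the right in both comparisons of tissues.

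Slc1a5, the exchanger of small neutral amino acids, switched its tissue order between the times. Its gene lies at chr7:16781340-16798274 on the plus strand of GRCm38. It was at 186, 94.0, 188, 28.5 and 342 CPM in the 5 D10 TE libraries, against 5.56, 8.01, 7.09, 9.61 and 0 CPM in the 5 E4 TE libraries. Every D10 TE library exceeded every E4 TE library, as in 8.6% of all genes, and E4 TE held 11 counts in all. In the ICM it was at 109, 57.1, 26.7, 48.8 and 92.5 CPM at D10, against 61.0, 39.9, 161, 101 and 82.1 CPM at E4, and these groups overlapped. The rise in TE was 4.48 ± 0.63 on the log2 scale (22.4-fold, 95% interval 3.19 to 5.78, adjusted p = 1.22e-05, edgeR quasi-likelihood test with Benjamini-Hochberg adjustment). The ICM difference of -0.50 ± 0.46 did not pass (adjusted p = 0.474), and the changes in the 2 tissues differed by -4.98 ± 0.80 (adjusted p = 0.000286). At E4 the ICM was the higher tissue, by 3.65 ± 0.66 (12.5-fold, adjusted p = 0.000157), with groups that did not overlap, as in 10.5% of all genes in this direction. At D10 the ICM was the lower, at -1.33 ± 0.45 (adjusted p = 0.0284), with overlapping groups. Leaving out replicate 2, 3 or 4 of D10 ICM or 1, 3 or 5 of D10 TE ended that D10 call (adjusted p 0.0527 to 0.133), and so did limma voom (0.107), thinning to equal totals (0.104) and a fit of the compared groups alone (0.0595). The uterine marker Wfdc2 also rose in D10 TE (1.53 ± 0.26, adjusted p = 0.000106), and its part in the TE rises of Slc1a5, Slc3a2 and Slc7a3 was not tested.

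Slc1a4, the other exchanger of this pair (chr11:20302180-20332713, minus strand), was not counted in D10 TE. It had 0 counts in all 5 D10 TE libraries, against 5.56, 0, 11.8, 1.92 and 0 CPM in E4 TE, which is 7 counts in all. The D10 ICM libraries stood at 40.7, 22.2, 10.7, 14.95 and 61.7 CPM and the E4 ICM libraries at 6.10, 12.5, 17.7, 11.8 and 0 CPM. Every D10 ICM library was thus above every D10 TE library, while the other pairs of groups overlapped. Slc1a4 was higher in D10 ICM than in D10 TE with an exact 95% lower limit of 16-fold (54 against 0 counts, counting error at most). That limit was 12.3 to 20.5 with any 1 of these 10 libraries left out. An edgeR fit with no filter on low counts gave an adjusted p of 1.49e-10. P-values of the unfiltered fit are not on the scale of the main fit. The unfiltered fit also passed the difference between D10 TE and E4 TE (adjusted p = 0.0135) and the difference of the changes (0.00442). Both rested on litter M, whose E4 TE library held 5 of the 7 counts: without it the adjusted p-values were 0.257 and 0.195, and the 2 counts left gave no bound. The ratio of pooled counts between D10 ICM and E4 ICM was 2.10 (exact 95% interval 1.24 to 3.71, and 0.989 to 3.13 without replicate 5 of D10 ICM), and the unfiltered fit did not pass it (adjusted p = 0.118). Between E4 ICM and E4 TE the ratio was 2.45 (0.996 to 6.87, adjusted p = 0.376), and 4.99 without litter M (1.11 to 45.9, adjusted p = 0.267).

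**Figure D2:**
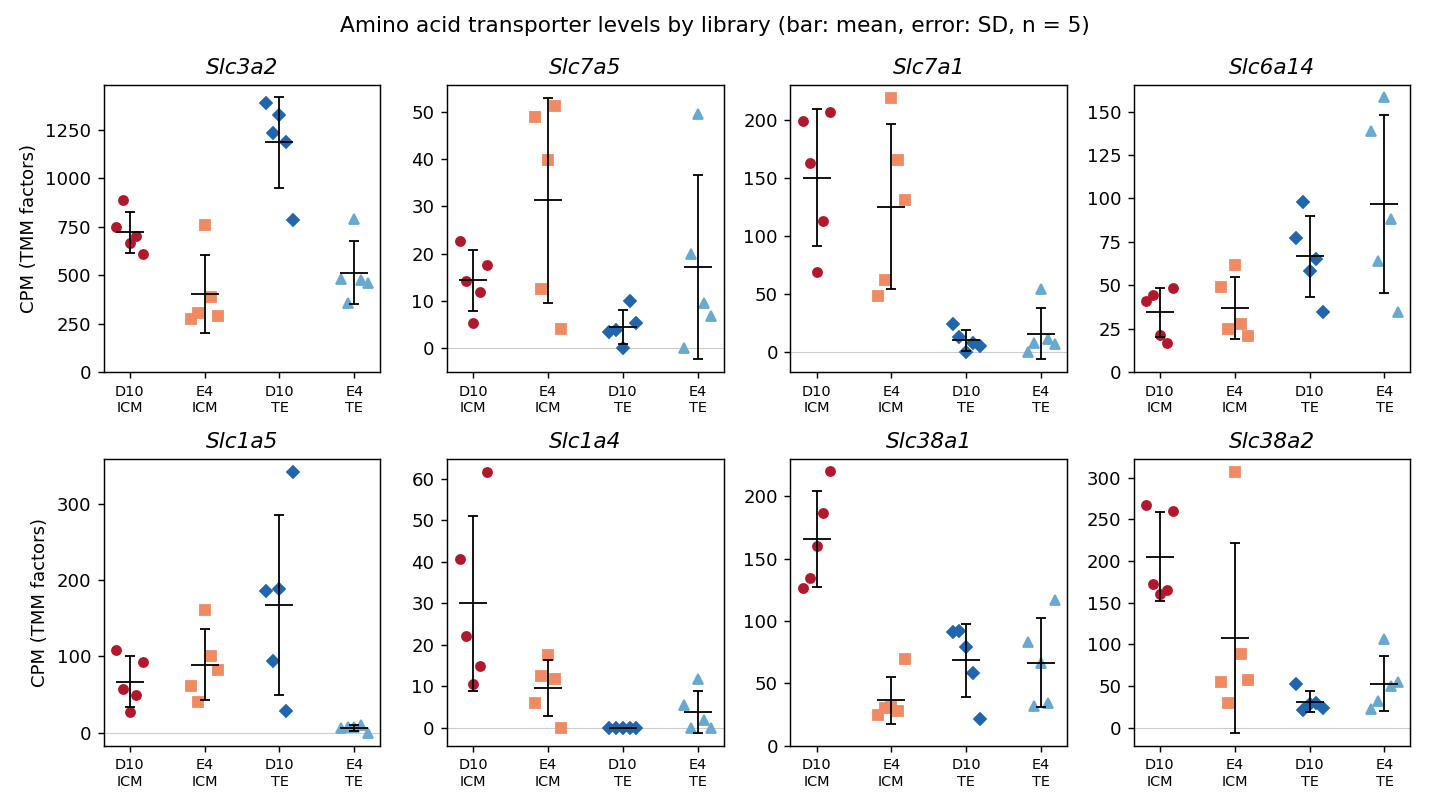
CPM of 8 members in each of the 20 libraries by group, with the mean and SD over 5 libraries. Slc1a5 stands near 0 in E4 TE and up to 342 CPM in D10 TE, Slc1a4 is at 0 in all D10 TE libraries, and Slc38a1 in D10 ICM lies above all the other groups.

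Slc38a1 and Slc38a2, the sodium-coupled carriers of glutamine and alanine called system A, were both high in D10 ICM. Slc38a1 (chr15:96571418-96642913, minus strand) was at 127, 135, 160, 186 and 220 CPM in D10 ICM, against 24.4, 29.9, 30.9, 27.6 and 69.7 CPM in E4 ICM. In the TE it was at 91.0, 92.1, 79.3, 58.6 and 21.2 CPM at D10, against 83.4, 32.0, 66.2, 34.6 and 117 CPM at E4. The D10 ICM libraries lay above all 15 libraries of the other groups, and the 2 TE groups overlapped widely. It rose by 2.21 ± 0.36 in the ICM (4.63-fold, adjusted p = 9.89e-05), where 7.92% of all genes had D10 libraries all above the E4 libraries. Its TE difference of 0.18 ± 0.36 did not pass (95% interval -0.55 to 0.91, adjusted p = 0.771). The changes differed between the tissues by 2.03 ± 0.51 (adjusted p = 0.0187). That call did not hold without the zona litters B and C (adjusted p = 0.0741) or without litter M (1.97, adjusted p = 0.0567). At D10 the ICM exceeded the TE by 1.26 ± 0.32 (2.40-fold, adjusted p = 0.00446), without overlap. The E4 difference of -0.77 ± 0.40 did not pass (adjusted p = 0.143) but did without replicate 5 of E4 ICM (-1.11, adjusted p = 0.0452). Primitive endoderm markers rose with it in the ICM (6 of 12 higher and 1 lower, against 13.7% and 9.97% of all genes), and their part was not tested.

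Slc38a2 lies beside Slc38a1 on the same strand, at chr15:96687392-96699730. It was at 267, 173, 160, 166 and 260 CPM in D10 ICM, against 52.5, 21.6, 29.0, 30.1 and 23.8 CPM in D10 TE. Every D10 ICM library was above every D10 TE library, a separation that 7.89% of all genes showed in this direction, and the difference was 2.67 ± 0.46 (6.37-fold, adjusted p = 8.52e-05). At E4 it was at 54.9, 29.9, 307, 88.7 and 57.4 CPM in ICM, against 22.2, 32.0, 106, 49.96 and 55.2 CPM in TE. Replicate 3, of litter M, was the highest in both E4 tissues, and the groups overlapped. The E4 tissue difference of 1.01 ± 0.47 did not pass (adjusted p = 0.0995). It did pass with litter as a replicate block (0.89, adjusted p = 0.017), with no filter on low counts (adjusted p = 0.0103), without replicate 2 of E4 ICM (1.23, adjusted p = 0.039) and without replicate 3 of E4 TE (1.45, adjusted p = 0.0341), while without replicate 3 of E4 ICM it came to 0.04 (adjusted p = 0.954). In the ICM the D10 minus E4 difference of 0.84 ± 0.42 did not pass (adjusted p = 0.15) but did with no filter on low counts (adjusted p = 0.0198), with limma voom (1.23, adjusted p = 0.0246), without replicate 3 of E4 ICM (1.80, adjusted p = 0.000848) and without litter M (1.80, adjusted p = 0.000225). In the TE it was -0.81 ± 0.50 (adjusted p = 0.261). The difference of these changes, 1.66 ± 0.65, did not pass (adjusted p = 0.152), and it passed with the litter block (1.80, adjusted p = 0.00496), with no filter (adjusted p = 0.00401), without replicate 3 of E4 ICM (2.64, adjusted p = 0.00275) and without litter M (2.15, adjusted p = 0.0111).

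Slc7a1, the main widely expressed arginine and lysine carrier (chr5:148327410-148399904, minus strand), was on the ICM side at both times. At D10 it was at 199, 163, 69.4, 113 and 207 CPM in ICM, against 24.5, 13.7, 0, 8.37 and 5.30 CPM in TE. At E4 it was at 48.8, 62.3, 219, 166 and 131 CPM in ICM, against 0, 8.01, 54.3, 11.53 and 6.90 CPM in TE. The tissues did not overlap at D10, and at E4 replicate 3 of the TE reached above the lowest ICM library. The ICM exceeded the TE by 3.77 ± 0.56 at D10 (13.7-fold, adjusted p = 1.40e-05) and by 2.71 ± 0.56 at E4 (6.54-fold, adjusted p = 0.000626). Without replicate 1 of D10 TE the D10 value was 4.38, and without replicate 3 of E4 TE the E4 value was 3.97. Neither time comparison passed, at 0.20 ± 0.44 in ICM (95% interval -0.71 to 1.12, adjusted p = 0.782) and -0.86 ± 0.70 in TE (-2.30 to 0.58, adjusted p = 0.413). The tissue difference at D10 was not shown to differ from that at E4 (1.06 ± 0.83, adjusted p = 0.521). Replicate 1 of D10 TE, the highest of its group for Slc7a1 and Slc38a2, also had that group's highest sum of primitive endoderm markers, 3850 CPM. Replicate 3 of D10 TE had the next highest sum, 3633 CPM, with 0 counts of Slc7a1 and Slc38a2 at its group's median, 29.0 CPM. The part of primitive endoderm cells was not tested.

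Slc7a2, the second cationic carrier among the members (chr8:40862396-40922308, plus strand), was hardly counted. It was at 4.53, 0, 0, 0.997 and 4.41 CPM in D10 ICM, 0, 0, 13.3, 1.97 and 4.10 CPM in E4 ICM, 1.75, 3.92, 3.87, 0 and 2.65 CPM in D10 TE and 0 CPM in all 5 E4 TE libraries. These are 3, 8, 6 and 0 counts, too few to order the groups, and 6 of the 8 in E4 ICM came from replicate 3, of litter M. Slc7a3, a further cationic carrier that is no member, rose in the TE. It was at 292, 406, 424, 121 and 241 CPM in D10 TE, against 22.2, 12.01, 89.8, 51.9 and 27.6 CPM in E4 TE, with no overlap, a rise of 2.70 ± 0.47 (6.49-fold, adjusted p = 0.000168). Its ICM difference was 0.27 (adjusted p = 0.712), and at D10 it was lower in ICM than in TE, at -1.37 ± 0.43 (adjusted p = 0.0186), a call lost without replicate 2 or 4 of D10 ICM or replicate 3 of D10 TE (highest adjusted p = 0.06). At D10 the ICM was thus above the TE for Slc7a1 and below it for Slc7a3.

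Slc6a14, the sodium- and chloride-coupled carrier of neutral and cationic amino acids, was on the TE side (chrX:21714896-21742355, plus strand). At D10 it was at 40.7, 44.4, 21.4, 16.9 and 48.5 CPM in ICM, against 77.0, 98.0, 58.0, 65.3 and 34.4 CPM in TE. At E4 it was at 48.8, 24.9, 61.9, 27.6 and 20.5 CPM in ICM, against 139, 64.0, 158, 88.4 and 34.5 CPM in TE. At each time the groups overlapped through the lowest TE library, replicate 5. The E4 difference was -1.42 ± 0.38 (adjusted p = 0.00576). The D10 difference, -1.01 ± 0.38, missed the threshold (adjusted p = 0.0527) and passed with litter as a block (-1.06, adjusted p = 0.00821). It also passed with no filter (adjusted p = 0.0153), with limma voom (0.0318), without litter M (0.0368) and without replicate 3 of E4 ICM, replicate 3 or 5 of E4 TE or replicate 5 of D10 TE (0.0318 to 0.0486). Over time it gave -0.15 ± 0.42 in ICM (adjusted p = 0.839) and -0.56 ± 0.34 in TE (95% interval -1.27 to 0.15, adjusted p = 0.257).

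Slc3a2, the heavy chain (chr19:8706882-8723369, minus strand), rose in both tissues. In the TE it was at 1388, 1232, 1329, 1190 and 787 CPM at D10, against 478, 356, 792, 477 and 462 CPM at E4. In the ICM it was at 747, 888, 668, 702 and 608 CPM at D10, against 275, 304, 758, 386 and 291 CPM at E4. Replicate 3 of E4, of litter M, was the highest of its group in both tissues and alone reached into the D10 range. The rise was 1.21 ± 0.26 in TE (2.31-fold, adjusted p = 0.0013) and 0.83 ± 0.26 in ICM (1.78-fold, adjusted p = 0.0213), and the 2 rises were not shown to differ (-0.38 ± 0.36, adjusted p = 0.622). The ICM call was lost without replicate 1, 2 or 5 of E4 ICM or replicate 2 of D10 ICM (adjusted p 0.0531 to 0.0585) and without the zona litters (0.61, adjusted p = 0.178). At D10 the ICM was lower than the TE, at -0.70 ± 0.25 (adjusted p = 0.0427), a call so near the threshold that it was lost on leaving out any of 11 libraries (replicates 1, 4 and 5 of E4 TE, 1, 3, 4 and 5 of D10 ICM and 1 to 4 of D10 TE, adjusted p up to 0.101) and on thinning (0.0674). At E4 the difference was -0.32 ± 0.26 (adjusted p = 0.365), and -0.72 without replicate 3 of E4 ICM (adjusted p = 0.0247). Trophectoderm markers also rose in the D10 ICM (5 of 12 higher and 1 lower, against 13.7% and 9.97% of all genes). Their part in the ICM rise of Slc3a2 was not tested.

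Of the light chains that need Slc3a2, Slc7a5 (LAT1, chr8:121881150-121907694, minus strand), a carrier of leucine and other large neutral amino acids, had low counts. It was at 22.6, 14.3, 5.34, 11.96 and 17.6 CPM in D10 ICM, against 48.8, 12.5, 39.8, 51.3 and 4.10 CPM in E4 ICM. In the TE it was at 3.50, 3.92, 0, 10.0 and 5.30 CPM at D10, against 0, 20.02, 49.6, 9.61 and 6.90 CPM at E4. The groups overlapped in both tissues. The ratio of pooled counts between D10 and E4 was 0.221 in TE (12 against 32 counts, exact 95% interval 0.104 to 0.441, unfiltered adjusted p = 0.00647) and 0.417 in ICM (31 against 58 counts, 0.260 to 0.655, unfiltered adjusted p = 0.133). Of the 32 E4 TE counts, 21 came from replicate 3, of litter M, and without it the TE ratio was 0.464 (12 against 11 counts, 0.188 to 1.16, unfiltered adjusted p = 0.514). Without replicate 4 of D10 TE the ratio was 0.144. Slc7a11 (xCT, chr3:49892526-50443614, minus strand), which exchanges glutamate for cystine, had 1 count in all 20 libraries, at 4.41 CPM in replicate 5 of D10 ICM. It was therefore not detectable at this depth in the other 19.

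Slc7a8 (LAT2), a light chain for neutral amino acids that is no member, rose in both tissues. It was at 222, 217, 240, 191 and 264 CPM in D10 ICM, against 6.10, 0, 88.4, 19.7 and 16.4 CPM in E4 ICM. In the TE it was at 459, 482, 526, 420 and 315 CPM at D10, against 61.1, 24.0, 213, 94.2 and 27.6 CPM at E4. All D10 libraries lay above all E4 libraries of their tissue. It rose by 2.93 ± 0.54 in ICM (7.60-fold, adjusted p = 0.000322) and by 2.26 ± 0.47 in TE (4.81-fold, adjusted p = 0.00105), and without litter M by 4.31 and 2.94. Over the 20 libraries it was the tested gene with the pattern most like that of Slc3a2 (Pearson r of log2 CPM 0.93). That value is a description over 4 groups of 5 libraries whose levels differ.

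**Figure D3:**
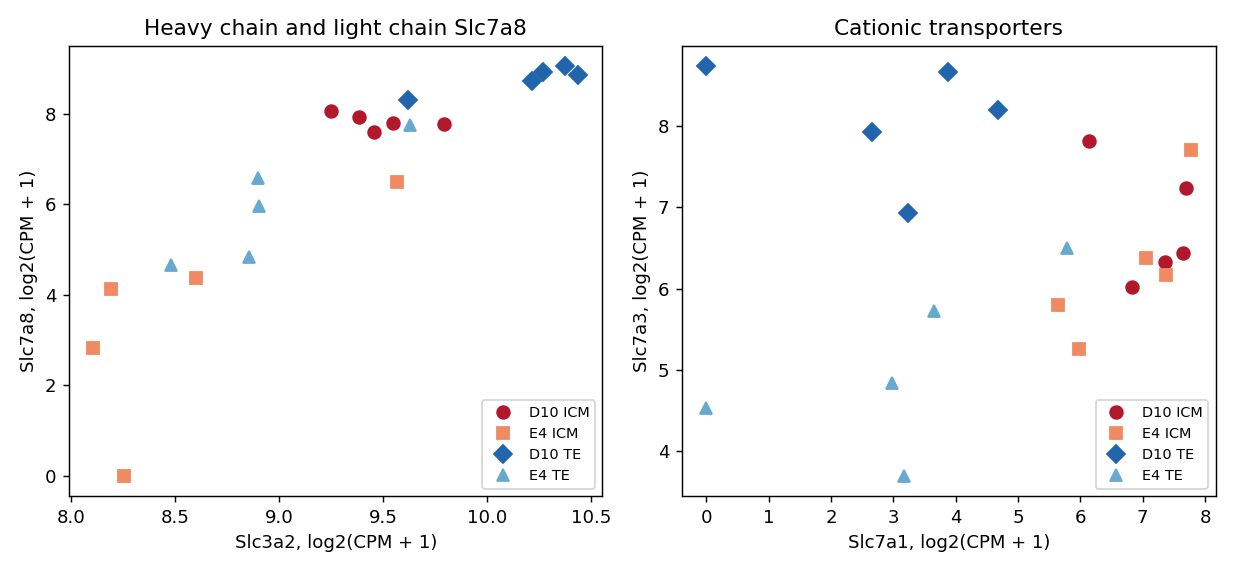
Left, Slc7a8 against Slc3a2, and right, Slc7a3 against Slc7a1, as log2(CPM + 1) in each of the 20 libraries, with symbols for the 4 groups. The same 4 D10 TE libraries have the 4 highest values of Slc3a2 and of Slc7a8, and D10 TE also holds the 4 highest values of Slc7a3, at low Slc7a1.

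Within E4, the litter labelled M stood out for most of the members. Its library was the highest E4 ICM library for 7 of the 9 members counted in that group (Slc1a4, Slc1a5, Slc38a2, Slc3a2, Slc6a14, Slc7a1 and Slc7a2), while 20.6% of all tested genes were highest there. It was the highest E4 TE library for 6 of the 8 members counted (Slc1a4, Slc38a2, Slc3a2, Slc6a14, Slc7a1 and Slc7a5), against 23.8% of all tested genes. The members so counted include some with too few counts to be tested (Slc1a4 and Slc7a2 in ICM, Slc1a4 and Slc7a5 in TE), which the shares leave out. Slc38a2 in E4 ICM stood at 307 CPM in litter M and at most 88.7 CPM in the others, and Slc7a1 in E4 TE at 54.3 CPM against at most 11.53 CPM. Slc7a3, Slc7a8 and Atf4 were also highest in litter M in both tissues, Atf4 at 442 CPM against at most 377 CPM in ICM and at 650 CPM against at most 417 CPM in TE. Slc38a1 went elsewhere: it was highest in litter O in both tissues, at 69.7 CPM in ICM and 117 CPM in TE. Carriers that are no members were mixed. In E4 TE, litter M was the lowest library for Slc6a6 (102 CPM) and Slc43a2 (42.5 CPM) and the highest for Slc1a1 (976 CPM). Litter M was chosen for this description after its values were seen, and each litter gave 1 library a tissue. Without it, 3, 2, 6, 3 and 2 members passed in the 5 comparisons (times in ICM and TE, tissues at D10 and E4, difference of changes), against 2, 2, 5, 3 and 2 with it.

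**Figure D4:**
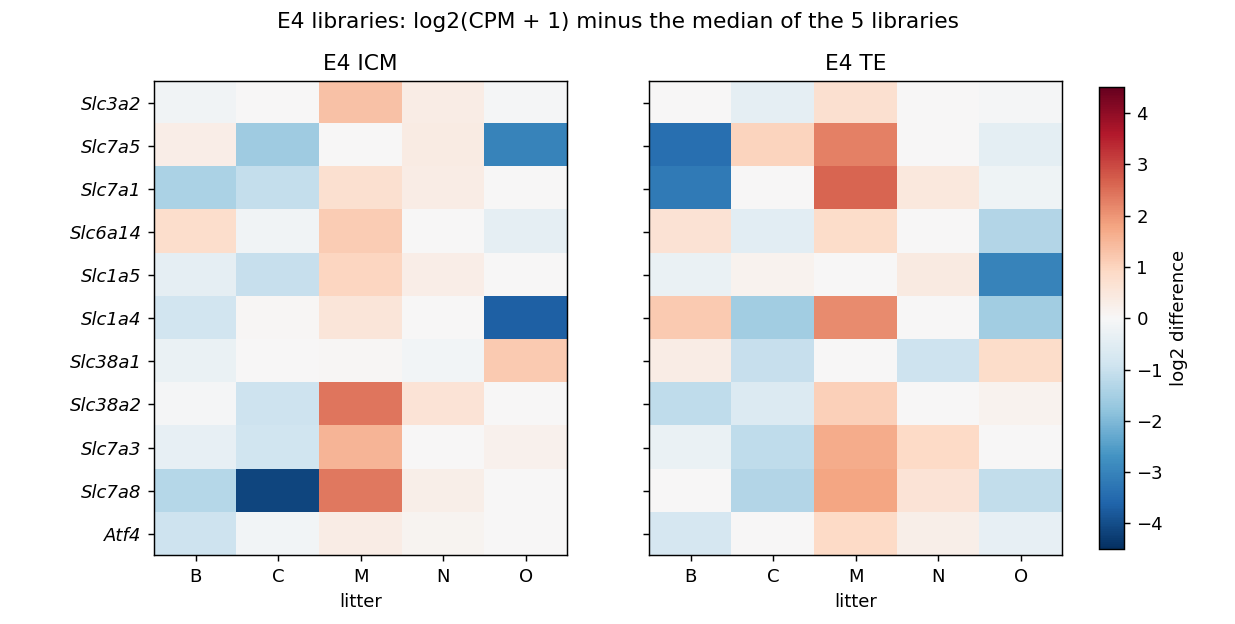
Colours give log2(CPM + 1) minus the median of the 5 E4 libraries of a tissue, for 8 members, Slc7a3, Slc7a8 and Atf4, with litters B, C, M, N and O in columns. The column of litter M is at or above the median for every gene drawn, while Slc38a1 is highest in litter O.

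The other carriers of the plasma membrane (28 in the table, 9 tested) were mostly on the TE side where they passed. Of the 9, 1 was higher and 5 lower in ICM than in TE at D10, and the same counts held at E4 (median log2 fold change -0.96 and -1.05), where 12.9% of all tested genes were higher and 12.6% lower at D10, and 15.8% and 15.4% at E4. Slc43a2, a carrier of large neutral amino acids, was lower in ICM, at -2.49 ± 0.35 at D10 (adjusted p = 7.6e-06) and -2.92 ± 0.47 at E4 (adjusted p = 4.37e-05). Slc1a1, a glutamate carrier, was also lower, at -1.93 ± 0.44 at D10 (adjusted p = 0.00169). Slc1a3, another glutamate carrier, was the 1 on the ICM side, by 3.15 ± 0.78 at D10 (adjusted p = 0.00354) and by 5.51 ± 0.87 at E4 (adjusted p = 3.09e-05). Those 2 values rested on the TE being near 0 and were 6.74 without replicate 1 of D10 TE and 8.47 without replicate 1 of E4 TE. Over time 4 rose and 1 fell in ICM, against 13.7% and 9.97% of all genes. In TE 3 rose and 2 fell, against 11.9% and 9.89%. Slc43a2 was among those that rose in both (1.88 ± 0.51, adjusted p = 0.00945 in ICM, and 1.45 ± 0.33, adjusted p = 0.00196 in TE). On libraries thinned to 1 total, the Slc43a2 difference was 3.97 between the times in ICM and -4.96 between the tissues at E4. With limma voom, the difference between the times in ICM did not pass (adjusted p = 0.0901). Of 5 tested carriers of lysosomes and endosomes, 1 rose and 1 fell in each tissue over time, beside the same shares of all genes. The cystine exporter Ctns rose by 1.69 ± 0.33 in ICM (adjusted p = 0.000572) and the glutamine carrier Slc38a7 fell by 1.77 ± 0.36 in TE (adjusted p = 0.000916). Ctns in TE (0.86, adjusted p = 0.0402) and Slc38a7 in ICM (-1.10, adjusted p = 0.0445) lay near the threshold and lost the call in 17 and 21 alternatives (adjusted p up to 0.211 and 0.238), among them leaving out any 1 of 10 and 15 libraries.

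Genes of the ATF4 response to amino acid shortage (17 of 32 listed were tested) passed mostly downwards in the TE. At D10 relative to E4, 1 rose and 7 fell in TE (median -0.88, beside 0.02 over all genes), where 11.9% of all tested genes rose and 9.89% fell. In ICM 2 rose and 2 fell, near the 13.7% and 9.97% of all genes. Leaving out single libraries gave 4 to 12 calls in TE, the 4 without replicate 3 of E4 TE. Each such fit filtered the genes anew, so the listed genes tested can differ from the 17. In TE the methionine-tRNA ligase Mars1 fell by 2.47 ± 0.24 (adjusted p = 4.44e-08) and the serine synthesis enzyme Psat1 fell by 2.30 ± 0.55 (adjusted p = 0.00333), while the stress gene Nupr1 rose by 3.61 ± 0.56 (adjusted p = 4.33e-05; 3.01 without replicate 5 of D10 TE). Psat1 was at -1.11 without replicate 3 of E4 TE, of litter M (adjusted p = 0.0699), and the list's calls in TE were 2 higher and 3 lower without litter M. Atf4 itself, singled out because the list bears its name, fell by 1.10 ± 0.28 in TE (adjusted p = 0.00606) and was at -0.39 ± 0.28 in ICM (adjusted p = 0.343). At D10, 5 of the 17 were higher and 1 lower in ICM than in TE, against 12.9% and 12.6% of all genes. Cth, which makes cysteine, led those higher in ICM, at 2.23 ± 0.45 (adjusted p = 0.000531). At E4, 2 were higher and 1 lower, against 15.8% and 15.4% of all genes. Leaving out single libraries gave 4 to 7 calls there, above the 3 of the main fit, again with the genes filtered anew.

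Enzymes of amino acid metabolism (22 of 30 listed were tested) passed mostly on the ICM side. At D10, 10 of the 22 were higher and 0 lower in ICM than in TE at an adjusted p of 0.05, and at E4 11 were higher and 2 lower, against 12.9% and 12.6% of all genes at D10 and 15.8% and 15.4% at E4. Examples at D10 are the threonine dehydrogenase Tdh, the branched-chain aminotransferase Bcat1 and the glutamate dehydrogenase Glud1. Tdh, which is also on the list of epiblast markers, was at 6.25 ± 0.57 (adjusted p = 1.88e-08), and at 9.97 without replicate 1 of D10 TE. Bcat1 was at 3.59 ± 0.39 (adjusted p = 2.39e-07), and at 4.24 without replicate 4 of D10 TE. Glud1 was at 1.28 ± 0.16 (adjusted p = 1.82e-06). Over time 4 rose and 5 fell in ICM and 5 rose and 5 fell in TE. Of all tested genes, 13.7% rose and 9.97% fell over time in ICM, and 11.9% rose and 9.89% fell in TE. These shares and the tissue shares above are also the background of the lists that follow. Genes of amino acid sensing by mTORC1 (17 tested) gave 3 higher and 2 lower over time in ICM, 2 and 0 in TE, 0 and 2 between the tissues at D10 and 2 and 2 at E4. The Rag GTPase Rraga rose in both tissues, by 1.37 ± 0.31 in ICM (adjusted p = 0.00201) and 1.77 ± 0.29 in TE (adjusted p = 7.41e-05). Glutathione synthesis uses the cysteine that Slc7a11 brings in as cystine. Of 13 tested genes of glutathione synthesis and NRF2 targets, 1 rose and 2 fell over time in ICM and 1 rose and 1 fell in TE, and between the tissues 2 were higher and 2 lower in ICM at D10 and 2 and 4 at E4.

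Across the 20 libraries each tested member was also set beside the tested genes whose log2 CPM followed it most closely. Slc7a1 was most like Shmt2 and Rhpn1 (Pearson r 0.92 each), Slc38a2 most like Amn and Car2 (0.91 each), Slc1a5 most like Morf4l2 (0.88) and Smc6 (0.83), Slc38a1 most like Sgms1 (0.82) and Pcyt2 (0.79), and Slc6a14 most like Entpd1 and Id2 (0.83 each). After Slc7a8, the gene most like Slc3a2 was Gchfr (0.88). Shmt2 makes mitochondrial glycine from serine and is on the ATF4 list, and Id2 is a trophectoderm marker. Among the members the most alike pair was Slc7a1 and Slc38a2 (0.84) and the least alike Slc7a1 and Slc6a14 (-0.45). The libraries fall into 4 groups that differ in level, so these values describe likeness over groups and carry no test.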

How the data were processed

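RNA of ICM and TE was measured by BRB-seq, a 3′-end method in which barcoded oligo-dT primes the reverse transcription of each lysate, per the labels' protocols. Replicates were mixed before PCR, and pool and group therefore cannot be told apart. The deposited values are raw counts of 21470 genes in 20 barcoded libraries of 144276 to 1010354 counts. GRCm38 and GRCh38 are the builds in the submitters' processing notes, which list HISAT2 2.2.1, featureCounts 2.0.1, Trim Galore 0.6.7 and UMI-tools. For collapse by molecular identifier, strand use and annotation the setting is not given in the sources used. Counting intervals and limits thus cover counting error at most, and less than that if PCR copies were counted.

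Genes were filtered with filterByExpr (minimum count 10), which left 6943, and all 4 groups were fitted together in edgeR 4.0.16 (R 4.3.3) with TMM normalization and its quasi-likelihood test. The test was checked on simulated data for D10 against E4 in ICM. The simulation changed 200 genes, drew the libraries independently with a spread that depended on gene level alone, and held no litter effects. Its rates need not hold for the real libraries. In the simulation the test recovered 95% of 4-fold changes but 32% of 2-fold changes, and 2.31% of its 130 calls were false. A difference of about 2-fold that did not pass can therefore have been missed. P-values were adjusted by Benjamini-Hochberg over all tested genes within each of 5 comparisons, and 0.05 was the threshold. Changes are log2 fold changes ± SE and levels are CPM with TMM factors. For the 4 members under the filter, pooled counts are compared with exact 95% intervals beside the adjusted p of a fit without the filter. That fit estimates the spread anew over all counted genes, and its p-values are not on the scale of the main fit. For Slc1a5 in TE over time, at 4.48 in both fits, the adjusted p by edgeR was 3e-27 without the filter and 1.22e-05 with it. Correlations used log2 CPM with a prior count of 2. Positions are those of the GENCODE M21 annotation of GRCm38. No member shares exon bases with another gene in its last 2000 bases.

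Any 2 libraries of a group differed beyond counting noise (lowest chi-square per degree of freedom 2.57). The barcode list gives the litters. Deviations from the group means correlated across genes between ICM and TE of the same litter (mean r 0.168 at D10 and 0.177 at E4), against -0.0418 and -0.0435 between litters. One alternative between tissues therefore had litter as a replicate block. The other alternatives were DESeq2 1.42.0 size factors, the DESeq2 Wald test, limma 3.58.1 voom, no filter, a minimum count of 20, libraries thinned to 144276 counts, a fit of the compared groups alone, E4 without its zona litters, and each library left out. A fit without E4 litter M, also with no filter, and pooled ratios with single libraries left out were chosen after seeing the data.

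All 10 members are named. Of every other list, up to 3 genes with the smallest adjusted p in a comparison could be named, and for each tested member the 2 most alike genes. Slc6a6 was named for its values in litter M. The members and the lists were chosen with earlier results of these data known.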

Additional observations from a re-analysis of the deposited data

Results flagged for a closer look

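In 7 of the 35 groups of 5 libraries that held a counted member, 1 library stood far above the other 4 (Dixon's ratio above 0.710). For normally distributed values the ratio flags about 1 in 20 groups, or 1.75 of 35. Low counts are not so distributed, and 1.75 is thus no measure of chance for these groups. Of these, 4 were the E4 litter M: Slc3a2 at 758 CPM in E4 ICM and at 792 CPM in E4 TE, Slc7a1 at 54.3 CPM in E4 TE and Slc38a2 at 307 CPM in E4 ICM. Slc38a1 was at 69.7 CPM in replicate 5 of E4 ICM. Slc38a2 was at 52.5 CPM in replicate 1 of D10 TE. Slc7a11 was at 4.41 CPM in replicate 5 of D10 ICM, which is 1 count.

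The D10 minus E4 change differed between ICM and TE for 2 members. The difference of the changes, ICM minus TE, was -4.98 on the log2 scale for Slc1a5 and 2.03 for Slc38a1, from the interaction term of the edgeR fit.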

How the results depend on the processing

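Over all alternatives, log2 fold changes of the 6 tested members were recomputed 881 times: 820 kept their direction and side of the threshold, 22 gained the call, 28 lost it and 11 changed sign, all of the last without a call. Thinning every library to 144276 counts left 874, 791, 897, 1231 and 163 genes in the 5 comparisons (D10 against E4 in ICM and TE, ICM against TE at D10 and E4, difference of the changes), against 1643, 1513, 1771, 2165 and 346, because fewer genes and counts entered, and 3 members in place of 5 for the tissues at D10. No filter on low counts gave 538 genes and 4 members for the difference of the changes, with more genes tested and the spread estimated anew. It also gave 4 members for the times in TE, 2 higher and 2 lower. Leaving out the zona litters gave 198 genes and 1 member for the difference of the changes and 1 member for the times in ICM, with fewer samples. For the times in TE it gave 3 members, 2 higher and 1 lower. Leaving out single libraries gave 1331 to 1734, 1292 to 1636, 1496 to 1887, 1860 to 2257 and 280 to 384 genes, and 1 to 3, 2 to 3, 3 to 6, 3 to 4 and 2 to 3 members. The litter block added Slc6a14 between tissues at D10 and Slc38a2 at E4 and in the difference of the changes, and changed no other member's call. It could not be fitted over time, since D10 and E4 litters differ, and a fit of the compared groups alone could not give the difference of the changes.

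Signs changed as follows, and the cause was not tested. Leaving out single libraries gave -0.30 to 0.22 for Slc6a14 in ICM, -1.49 to 0.41 for Slc7a1 and -0.05 to 0.40 for Slc38a1 in TE over time, and -0.55 to 0.03 for Slc3a2 and -0.18 to 1.72 for Slc7a1 in the difference of the changes. Without litter M, the times gave 0.22 for Slc6a14 in ICM (0.22 also without replicate 3 of E4 ICM, and 0.11 without replicate 4 of D10 ICM) and 0.42 for Slc7a1 in TE (0.41 without replicate 3 of E4 TE). Slc7a1 in ICM gave -0.19 without the zona litters. Slc38a1 in TE gave -0.05 on thinning, -0.01 without replicate 2 of E4 TE and -0.05 without replicate 4. The difference of the changes gave 0.03 for Slc3a2 without replicate 3 of E4 ICM and -0.18 for Slc7a1 without replicate 3 of E4 TE. Depth limits Slc1a4, Slc7a2, Slc7a5 and Slc7a11, where 3 counts stand for up to 20.7 CPM.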
